A study of Mus musculus with 7 samples.

Results

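The genes described here are 46 that encode lysosomal proteases, other lysosomal hydrolases and the proteins that build and acidify the lysosome. They were chosen by name, but with earlier results of these data known, so the choice was not blind to the values. All 46 were found among the 19938 genes measured, each through a probe set annotated with that gene alone, and the brightest row was used for a gene with several. The lysosome is the acidic compartment in which macrophages digest engulfed cells, microbes and matrix. A proton pump, the V-ATPase, acidifies it, and cathepsins, glycosidases, sulfatases, phosphatases and lipid hydrolases then break down proteins, sugars and lipids. Many of these genes can be switched on together by the transcription factor TFEB and its MiT-TFE relatives, which bind a short E-box sequence in their promoters. Resident gut macrophages are strongly phagocytic cells in which IL-10 restrains inflammatory genes.

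The study used 7 Affymetrix arrays to profile macrophages that had been sorted from the lamina propria of the colon in C57BL/6 mice, all 6 weeks old, and asked how loss of IL-10 or of its receptor changes them. Control mice (WT) carried 1 Cx3cr1 allele with GFP in place of the gene and gave 3 arrays with the sort label resident and 1 with the label CX3CR1hi. Il10_KO mice were IL10-/- with the same CX3CR1gfp/+ reporter and gave 1 array, labelled CX3CR1hi. Il10ra_mKO mice, CX3CR1cre:IL10Raflox/flox, delete the ligand-binding chain of the IL-10 receptor wherever the Cx3cr1 promoter drives Cre, and gave 2 arrays, labelled resident. Each mutant was compared with WT of its own sort label. No array carried Cre without the floxed gene, and the WT mice carry GFP where the Il10ra_mKO mice carry Cre, so the allele at Cx3cr1 and the Il10ra deletion cannot be told apart. The RNA kit followed the sort label, and no label says whether each array is a separate animal. The p-values therefore rest on the spread among these arrays, part or all of which may be technical.

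Il10ra was 10.56, 10.76 and 11.12 in the resident WT arrays and 8.05 and 7.04 in the Il10ra_mKO arrays, which do not overlap. The difference was -3.27 ± 0.38 (SE), 9.63-fold lower, and even for the deleted gene the adjusted p was 0.243 in limma. The 11 macrophage markers, such as Csf1r, Mertk and C1qa, averaged log2 11.54 to 11.68 in the resident WT arrays, 11.58 and 11.79 in the Il10ra_mKO arrays, and 11.71 and 11.94 in the CX3CR1hi WT and Il10_KO arrays. Of these markers Mertk, Fcgr1 and C1qa lay above the WT range in both Il10ra_mKO arrays and Cx3cr1, Mrc1 and Itgam below. Cx3cr1 is the locus that carries GFP in WT and Cre in Il10ra_mKO, so its value also reflects the alleles. The arrays also carried RNA of other cell types. The mean of 14 epithelial markers was 10.61 to 10.98 in the resident WT arrays, 10.67 in Il10ra_mKO array 1 and 8.82 in Il10ra_mKO array 2, and it was 11.41 in the CX3CR1hi WT array against 10.82 in the Il10_KO array. Of 10 fibroblast and muscle markers 6 lay below the WT range in both Il10ra_mKO arrays, and all 10 were lower in the Il10_KO array than in its control. Of 10 neutrophil markers 7 lay above the WT range in both Il10ra_mKO arrays, their mean being 6.22 and 5.89 against 5.63 to 5.70, although 5 of the 10 stayed below the brightness filter in every array. Of 8 monocyte markers 2 lay above and 2 below, with means of 8.26 and 8.01 against 7.57 to 7.86. Of 9 dendritic cell markers 5 lay above and 2 below, with means of 7.23 and 7.40 against 6.63 to 6.81, and of 8 B and plasma cell markers 3 lay above and 1 below, with means of 7.56 and 8.05 against 7.21 to 7.38. Among them, and named after their values had been seen, the monocyte marker F10 differed from WT by 3.12, and the dendritic cell markers Clec9a and Ccr7 by 2.91 and 2.31, each above the WT range in both arrays. Below that range in both arrays lay the monocyte markers Fn1 (-1.46) and Vcan (-0.25) and the dendritic cell markers Cd24a (-1.13) and Dpp4 (-0.32). Of 8 T cell and innate lymphoid markers 2 lay above the WT range in both arrays and 0 below, with means of 6.33 and 6.40 against 6.06 to 6.32. Of these markers 5 stayed below the brightness filter in every array. Of 7 endothelial and glial markers 0 lay above and 2 below, with means of 6.09 and 6.00 against 6.18 to 6.43. Of all genes 8.92% lay above the WT range in both Il10ra_mKO arrays and 8.50% below. The part of these cell types in the results below was not tested. In 49.2% of rows at least 2 resident arrays held exactly the same value, against 0 rows for the pair of CX3CR1hi arrays. The spread among resident arrays is therefore compressed for many genes, and levels are not compared across sort labels. Bright genes are among them, such as Grn at 12.3143 in WT arrays 1 and 2 and Il10ra_mKO array 1. Groups said below to touch or tie hold such equal values, whose origin was not tested.

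More of the lysosomal genes were higher than lower in each mutant, by small amounts, and none of them passed the test in macrophages without Il10ra. In the Il10ra_mKO arrays 33 of the 46 genes had a mean above WT, 71.7% against 48.5% of all genes and 55.7% of the 10558 genes that passed the brightness filter (above log2 5.86 in at least 2 arrays), which 45 of the 46 passed. The median difference over the 46 genes was 0.14 on the log2 scale, against 0.00 over all genes and 0.02 over the genes past the filter. By limma's moderated test with Benjamini-Hochberg adjustment over all genes, 0 of the 46 had an adjusted p under 0.05, as did only 1 of all genes (0.00502%, or 0.00947% of those past the filter). At an unadjusted p under 0.05, 1 of the 46 was higher (4.06% of all genes, 6.79% past the filter) and 3 were lower (3.86% and 5.76%). Both Il10ra_mKO arrays lay above all 3 resident WT arrays for 10 of the 46 genes, 21.7% against 8.92% of all genes and 14.6% of those past the brightness filter. These were Ctss, Ctsz, Ctsd, Gusb, Neu1, Acp2, Acp5, Npc2, Atp6v0d2 and Tfeb. Both arrays lay below WT for 3 genes, Ctse, Arsb and Smpd1, 6.52% against 8.50% of all genes and 11.9% of those past the filter.

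**Figure D1:**
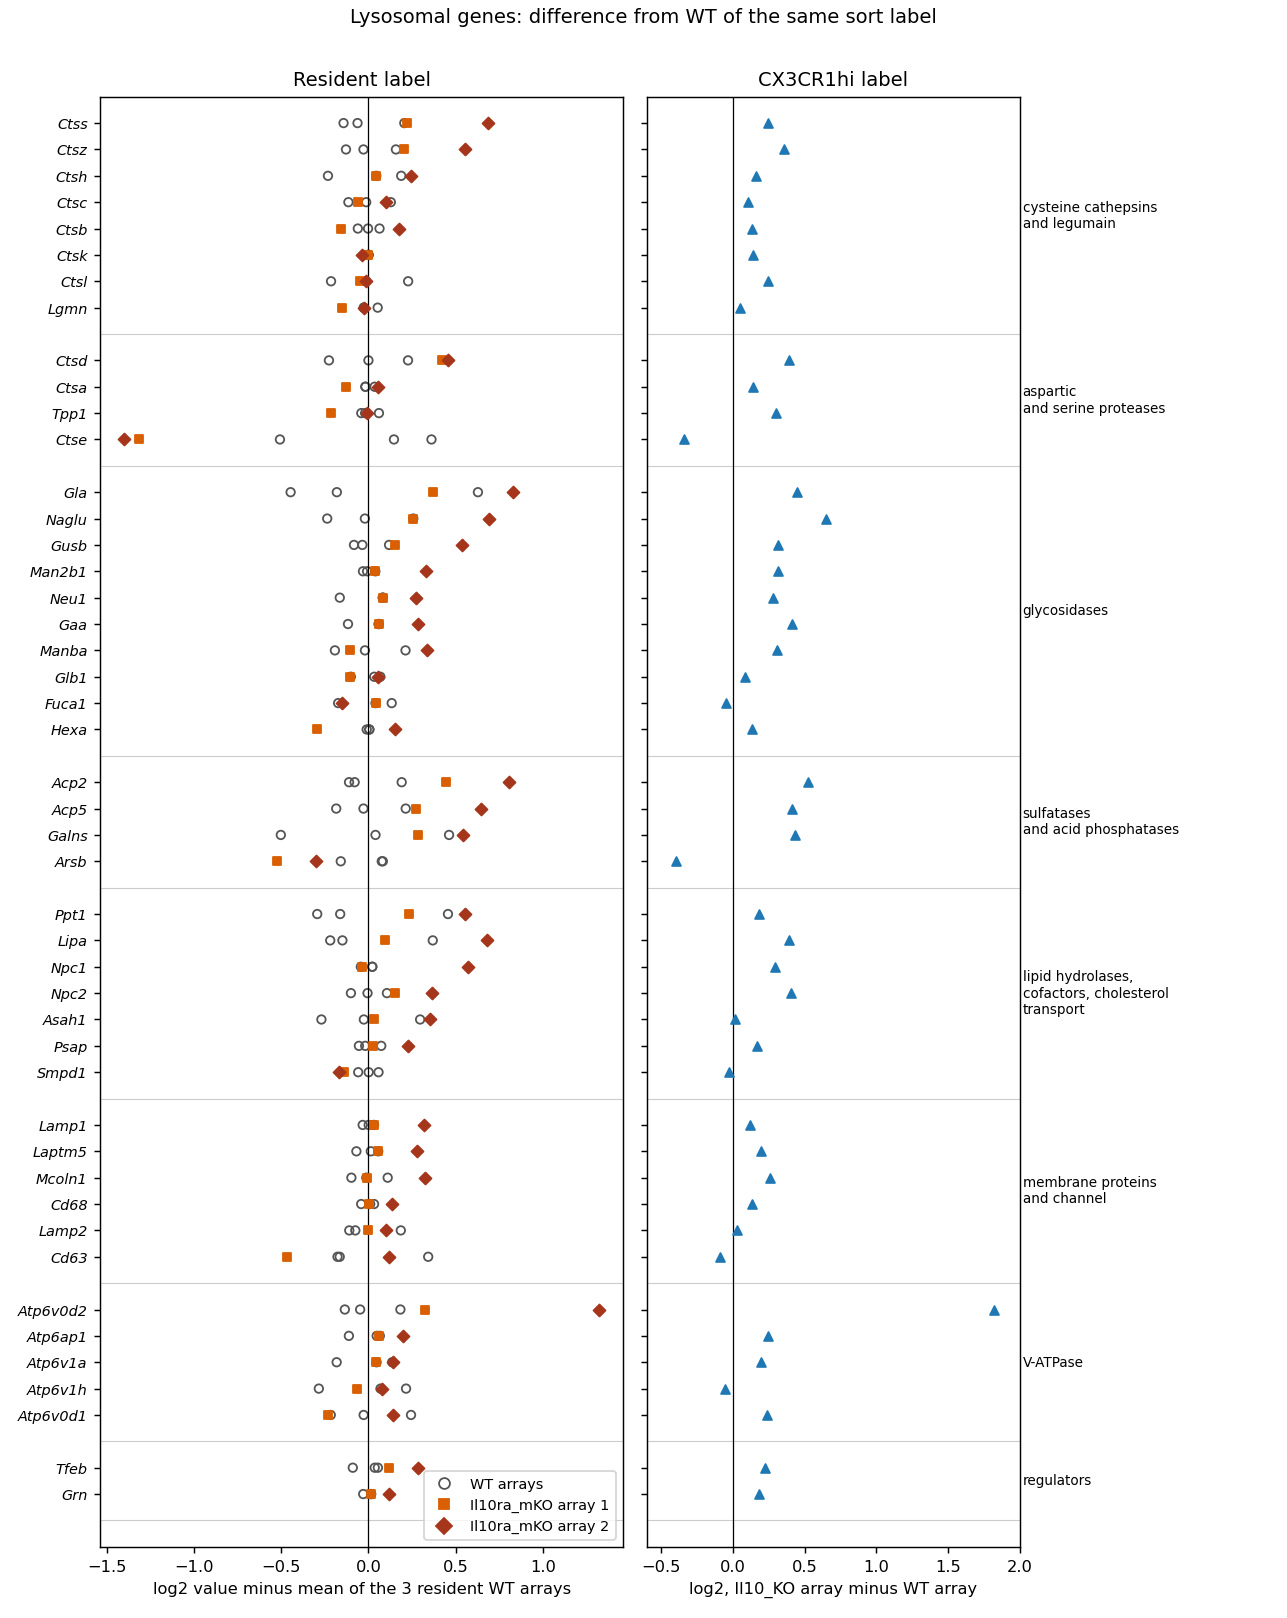
Each row is 1 of the 46 lysosomal genes, grouped by role. The left panel plots the log2 value of each resident array minus the mean of the 3 resident WT arrays (open circles WT, squares and diamonds Il10ra_mKO arrays 1 and 2), and the right panel plots the Il10_KO array minus the CX3CR1hi WT array. The diamonds lie to the right of the squares in 42 of 46 rows, and most triangles lie to the right of 0.

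Il10ra_mKO array 2 was higher than array 1 for 42 of the 46 genes, 91.3% against 40.0% of all genes and 57.3% of those past the filter. The mean of the 46 genes was 10.45 in array 1 and 10.71 in array 2, against 10.36, 10.41 and 10.59 in the resident WT arrays, so the groups overlapped in this mean. Array 2 is also the array with the low epithelial mean, and its part in the result was not tested. The titles carry serial numbers, and neighbouring numbers were taken as a run. No label says that such samples were processed together. Within these runs array 1 had a median difference from its WT arrays of 0.07 and array 2 of 0.14. Of the 46 genes 25 were higher in both runs, against 25.5% of all genes and 34.4% of those past the filter, and 8 were lower in both, against 23.3% and 27.8%. WT resident array 3 was the highest of the 3 WT arrays for 32 of the 46 genes, against 26.2% of all genes. By the title numbers WT array 3 and Il10ra_mKO array 2 fall in the same run. Without WT array 3 the count of genes above the WT range was 21 instead of 10. Leaving out Il10ra_mKO array 1 gave 32 and a median of 0.26, and leaving out Il10ra_mKO array 2 gave a median of 0.03 and 11 genes below the WT range. Fewer arrays make a range easier to leave, and shares over all genes are not given for the counts with an array left out. In bulk samples such as these, fewer cells of a type and less RNA per cell cannot be told apart.

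In the Il10_KO array 40 of the 46 genes were higher than in the CX3CR1hi WT array, 87.0% against 56.3% of all genes and 60.8% of those past the filter. The median difference was 0.21 over the 46 genes and 0.03 over all genes. The mean of the macrophage markers was 0.22 higher in the same comparison. Measured relative to that mean, 23 of the 46 genes were higher and 23 lower in Il10_KO, with a median of -0.01. The same step in the Il10ra_mKO comparison, where the marker mean was 0.07 higher, left 28 of 46 genes above 0 and a median of 0.07. This scaling to the markers was added after the values had been seen. The markers include Cx3cr1, which differed by -0.49 in Il10ra_mKO and whose allele differs there by design. A marker mean without Cx3cr1 was not computed. It shifted the median of all genes to -0.07 in the Il10ra_mKO and -0.20 in the Il10_KO comparison. Of the genes past the filter 39.7% were then above 0 in the Il10ra_mKO and 27.3% in the Il10_KO comparison.

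**Figure D2:**
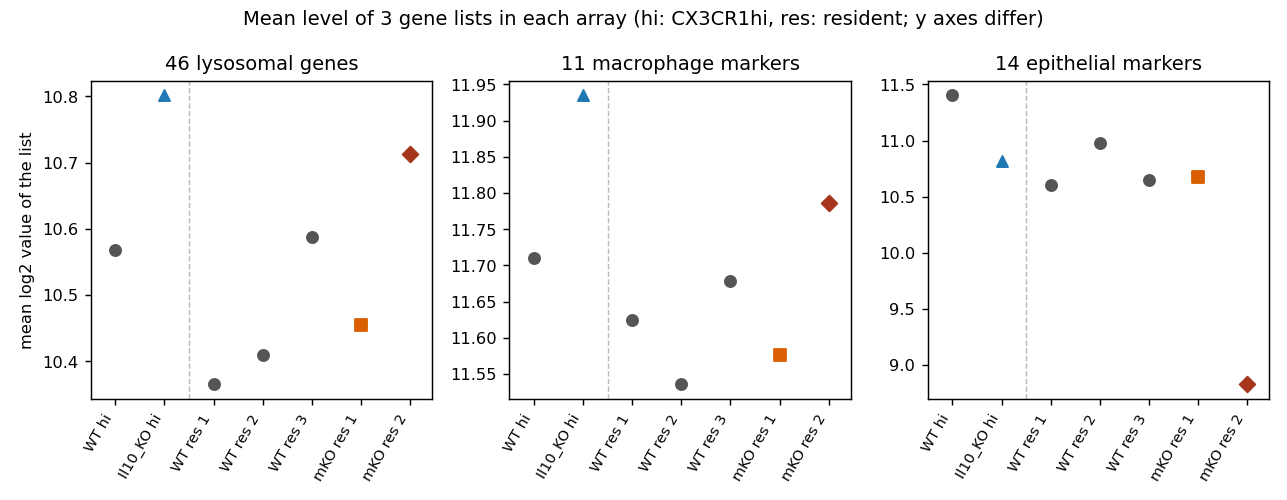
The mean log2 value of each gene list is plotted for each of the 7 arrays (circles WT, triangle Il10_KO, square and diamond Il10ra_mKO arrays 1 and 2), for the 46 lysosomal genes, 11 macrophage markers and 14 epithelial markers. The lysosomal mean is 10.80 in the Il10_KO array and 10.71 in Il10ra_mKO array 2, the array whose epithelial mean is 8.82.

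Promoters were read for 38 of the 46 genes, as the 250 bases before to 50 after the start of transcription in RefSeq's annotation of GRCm38.p6. The E-box core CACGTG was present, on either strand, in 12 of the 38 promoters, 31.6% against 8.09% of the promoters of 27025 genes and 9.50% of those of genes on the array. Its extended form TCACGTG, which contains the core, was present in 11, 28.9% against 4.29% and 5.35%. These were the promoters of Lgmn, Ctsa, Ctsd, Gaa, Gla, Glb1, Naglu, Lamp1, Mcoln1, Atp6v0d1 and Atp6v1a. The 10-base form, in which G precedes TCACGTG and AC follows it, was found in 0 of the 38 promoters and in 0.370% of all promoters. The spaced motif TTCNNNGAA, the form bound by STAT factors such as the one that IL-10 activates, was found only in Ctsc, 2.63% against 9.55%. A pair of GAAA words with 2 bases between them, the form bound by interferon regulatory factors, was found in Ctss and Lamp1, 5.26% against 3.99%. The median Il10ra_mKO difference was 0.16 over the 11 genes with TCACGTG and 0.13 over the 27 without it, and in the Il10_KO comparison 0.24 and 0.23. The stretches below show E-boxes of genes from 3 of the classes and the Ctss motif, each read on the gene's own strand, with the motif in capitals and up to 20 bases on either side. They end before the start of transcription and were chosen after the values had been seen.
Ctsd, chr7:142387899-142387946, minus strand: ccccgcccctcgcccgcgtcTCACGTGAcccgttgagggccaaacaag
Naglu, chr11:101070000-101070046, plus strand: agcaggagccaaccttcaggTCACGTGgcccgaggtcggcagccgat
Gla, chrX:134601173-134601253, minus strand: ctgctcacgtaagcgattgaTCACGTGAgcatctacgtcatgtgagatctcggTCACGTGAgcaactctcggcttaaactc
Lamp1, chr8:13159079-13159160, plus strand: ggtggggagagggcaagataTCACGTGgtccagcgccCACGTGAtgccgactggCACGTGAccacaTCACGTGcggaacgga
Mcoln1, chr8:3500427-3500500, plus strand: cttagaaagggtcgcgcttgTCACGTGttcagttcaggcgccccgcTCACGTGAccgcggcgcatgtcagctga
Ctss, chr3:95526745-95526785, plus strand: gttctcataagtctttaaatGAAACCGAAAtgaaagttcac
The Lamp1 stretch holds 4 copies of the E-box, and the Gla and Mcoln1 stretches hold 2 each. The Ctsd promoter has another copy farther before the start, outside the stretch shown. Where the capitals read TCACGTGA, the same site matches on both strands. Such a match describes the letters and does not show that a factor binds there.

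Among the cysteine cathepsins, proteases that degrade proteins in the lysosome, 2 of 8 lay above the WT range in both Il10ra_mKO arrays and none below. The shares of all genes were 8.92% above and 8.50% below, and of those past the filter 14.6% and 11.9%. The median difference of the class was 0.01 for Il10ra_mKO and 0.15 for Il10_KO. Ctss encodes cathepsin S, which trims the invariant chain of MHC class II and works at neutral as well as acid pH. Its log2 value was 11.77, 11.85 and 12.12 in the resident WT arrays and 12.14 and 12.60 in the Il10ra_mKO arrays, and 12.12 in the CX3CR1hi WT array against 12.37 in Il10_KO. The lower Il10ra_mKO array lay just above the highest WT array. The difference was 0.45 ± 0.20 (SE, n = 2 and 3 arrays), 1.37-fold, with an adjusted p of 0.678 in limma. The Ctss promoter holds GAAACCGAAA shortly before its start. A motif of that form is also in the Lamp1 promoter, and any part of it in the difference was not tested.
Ctsz encodes cathepsin Z, which removes single residues from the carboxyl end of proteins. It was 11.92, 11.82 and 12.11 in WT, 12.16 and 12.50 in Il10ra_mKO, and 11.91 against 12.27 in the CX3CR1hi pair. Again both Il10ra_mKO arrays lay above WT with a narrow gap, and the difference was 0.38 ± 0.15 (adjusted p = 0.678, limma). For the other 6 genes of the class the groups overlapped or tied. Ctsb and Ctsc, the broad-acting cathepsin B and the dipeptidyl peptidase that activates serine proteases of granules, differed by 0.01 ± 0.12 and 0.02 ± 0.10. Ctsh differed by 0.14 ± 0.16 and Ctsl by -0.03 ± 0.15. Legumain (Lgmn), which cuts after asparagine and matures other cathepsins, was 12.93, 12.93 and 13.01 in WT and 12.81 and 12.93 in Il10ra_mKO. Its difference of -0.09 ± 0.07 was among the largest downward ones of the 46 genes, yet the groups overlapped.
Ctsk, the collagen-cutting protease known from osteoclasts, was the one gene below the brightness filter, with 5.0 in all 3 resident WT arrays and 5.0 and 4.96 in Il10ra_mKO. It was also the only one of the 46 with an adjusted p under 0.05 in the Il10_KO comparison (7.90% of all genes), at 4.62 against 4.76 (difference 0.14 ± 0.02, adjusted p = 0.0418, limma). Its resident values are tied, and the error of this 1-array comparison is borrowed from the resident arrays. Of the 1576 genes called in that comparison 87.3% lay below the filter, and among the 45 lysosomal genes past it none was called (1.89% of the genes past it).

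The aspartic and serine proteases did not share a direction. Cathepsin D (Ctsd), the main aspartic protease of lysosomes, was 11.84, 11.61 and 11.38 in WT and 12.03 and 12.07 in Il10ra_mKO, and 11.34 against 11.74 in the CX3CR1hi pair. Both Il10ra_mKO arrays agreed closely and lay above all WT arrays, with a difference of 0.44 ± 0.16, 1.36-fold (adjusted p = 0.630, limma). Unlike most of the 46 genes, Ctsd was lowest in WT array 3.
Cathepsin E (Ctse), an aspartic protease of endosomes rather than mature lysosomes, had the largest difference of all 46 genes. It was 9.38, 10.25 and 10.03 in the resident WT arrays and 8.57 and 8.49 in the Il10ra_mKO arrays. The groups were separated by a gap wider than the distance between the mutant arrays but narrower than the range of the resident WT arrays, 0.87. The difference was -1.36 ± 0.30, 2.57-fold lower (adjusted p = 0.425, limma). The mean of the epithelial markers was 10.67 in array 1 and 8.82 in array 2, against 10.61 to 10.98 in WT, and that of the fibroblast and muscle markers 6.65 and 6.55 against 7.06 to 7.55. Their part in the Ctse difference was not tested. In the CX3CR1hi pair it was 9.9985 in WT and 9.66 in Il10_KO, a difference of -0.34 ± 0.47. The effect of Il10_KO exceeded that of Il10ra_mKO by 1.02 ± 0.56 (adjusted p = 0.558, limma), so the effects are not shown to differ. Relative to the macrophage markers the difference in Il10ra_mKO was -1.43 with an adjusted p of 0.00376 in limma, while its adjusted p ran from 0.00376 to 0.783 over the alternatives and passed in that 1 of 13.
The other members of the class differed little. Ctsa, the protective carboxypeptidase that stabilises sialidase and beta-galactosidase, differed by -0.04 ± 0.07. Tripeptidyl peptidase (Tpp1) was 10.43, 10.41 and 10.51 in WT, 10.23 and 10.44 in Il10ra_mKO, and 10.59 against 10.89 in the CX3CR1hi pair. Its signs differed between the mutants, and the effects differed by 0.41 ± 0.16 (adjusted p = 0.364, limma).

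**Figure D3:**
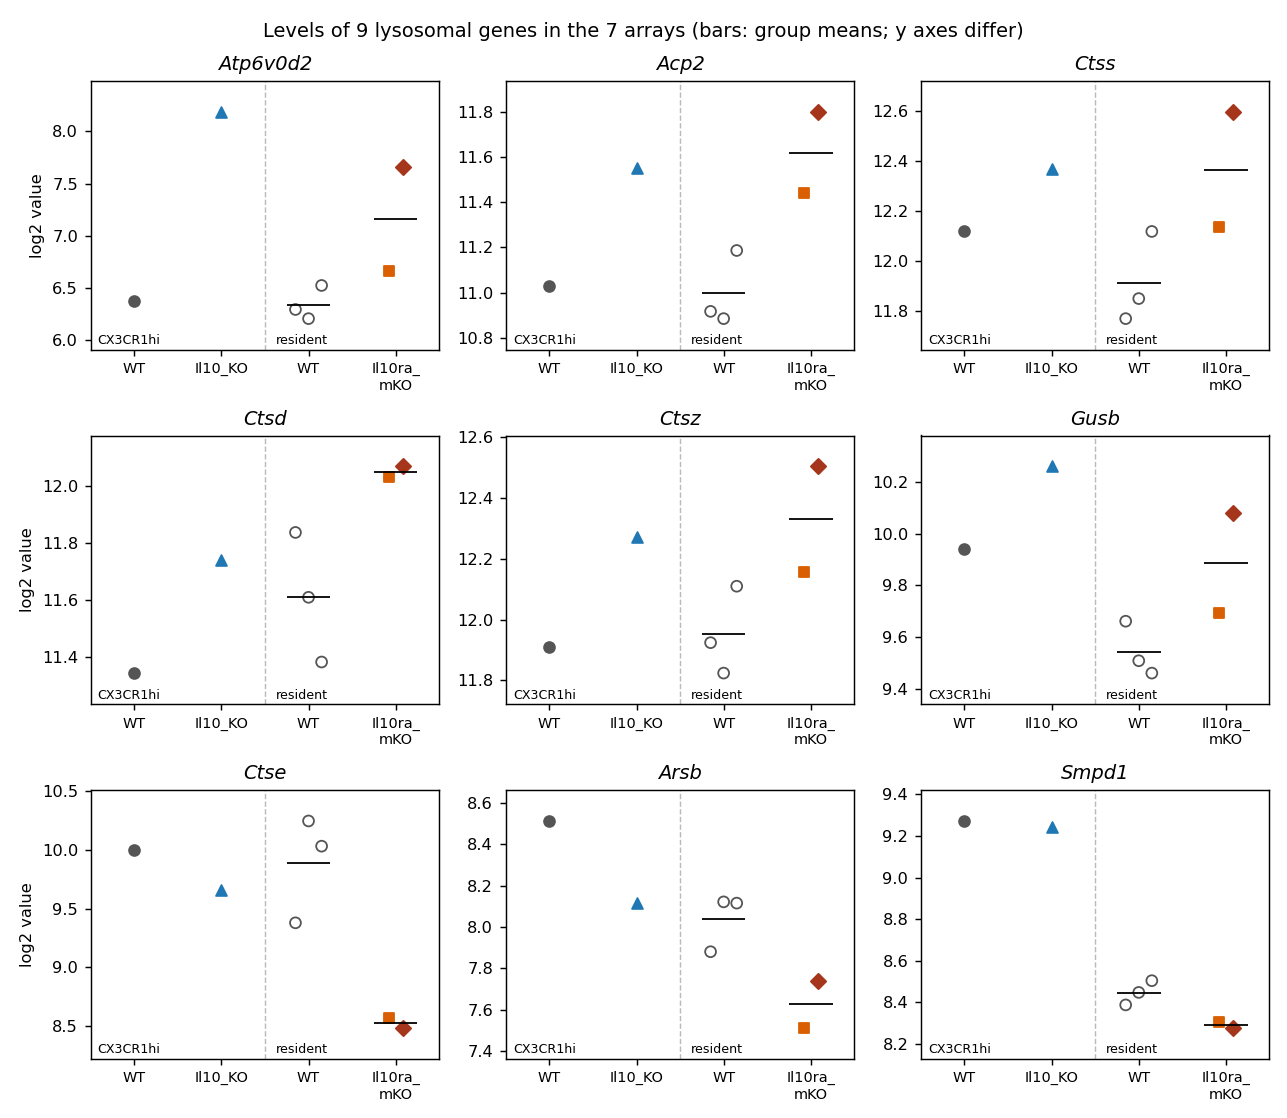
The log2 value of 9 lysosomal genes is shown in each of the 7 arrays, with horizontal bars for the means of the resident groups (3 WT and 2 Il10ra_mKO arrays); the y axes differ and do not start at 0. In the upper 6 panels both Il10ra_mKO arrays lie above the resident WT arrays, and in the lower 3 (Ctse, Arsb, Smpd1) both lie below.

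Of the 10 glycosidases, enzymes that strip sugars from glycoproteins, glycolipids and glycosaminoglycans, 7 were higher in Il10ra_mKO and 9 in Il10_KO, with medians of 0.18 and 0.31. Gusb, the beta-glucuronidase, was 9.66, 9.51 and 9.46 in WT, 9.69 and 10.08 in Il10ra_mKO, and 9.94 against 10.26 in the CX3CR1hi pair. Array 1 exceeded the highest WT array by a small margin, and the difference was 0.34 ± 0.15 (adjusted p = 0.678, limma). Neu1, the lysosomal sialidase, was the only other glycosidase past the WT range, at 8.21, 7.97 and 8.21 in WT and 8.22 and 8.40 in Il10ra_mKO, where array 1 all but tied with WT.
Naglu degrades heparan sulfate. It was 7.48, 7.70 and 7.97 in WT, 7.97 and 8.41 in Il10ra_mKO, and 7.45 against 8.10 in the CX3CR1hi pair. Array 1 equalled the highest WT array, so the groups touched, and the difference was 0.47 ± 0.22 (adjusted p = 0.678, limma). In Il10_KO Naglu was 1.57-fold higher (difference 0.65 ± 0.34), one of the 2 genes past 1.5-fold there.
Gla, the alpha-galactosidase missing in Fabry disease, was 9.56, 9.30 and 10.37 in WT and 10.12 and 10.58 in Il10ra_mKO. The WT arrays spread over a wider range than the groups were apart, and the difference was 0.60 ± 0.40. Its level was 9.98 in CX3CR1hi WT and 10.43 in Il10_KO. Gaa, Manba and Man2b1, which degrade glycogen and mannose-bearing chains, differed by 0.17 ± 0.11, 0.12 ± 0.20 and 0.19 ± 0.11 in Il10ra_mKO and by 0.41, 0.31 and 0.32 in Il10_KO. Glb1, Hexa and Fuca1, the beta-galactosidase, a hexosaminidase subunit and the fucosidase, had small negative differences in Il10ra_mKO of -0.03, -0.07 and -0.06. Fuca1 was also the only glycosidase lower in Il10_KO, at 10.19 against 10.15.

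The acid phosphatases were higher in both mutants, whereas 1 of the 2 sulfatases was lower in both. Acp2, the membrane-bound lysosomal acid phosphatase, was 10.92, 10.88 and 11.19 in the resident WT arrays, 11.44 and 11.80 in Il10ra_mKO, and 11.03 against 11.55 in the CX3CR1hi pair. Both Il10ra_mKO arrays stood clear of WT. The difference of 0.62 ± 0.17, 1.54-fold, was the only upward one of the 46 with an unadjusted p under 0.05, and its adjusted p was 0.492 in limma.
Acp5, the tartrate-resistant phosphatase of osteoclasts and activated macrophages, was 10.99, 11.14 and 11.38 in WT, 11.44 and 11.81 in Il10ra_mKO, and 11.54 against 11.96 in the CX3CR1hi pair. The gap to the highest WT array was small, and the difference was 0.46 ± 0.18 (adjusted p = 0.678, limma). Galns, a sulfatase of keratan and chondroitin sulfate, was 7.40, 7.95 and 8.37 in WT and 8.19 and 8.45 in Il10ra_mKO. Its groups overlapped, with a difference of 0.41 ± 0.33 and one of 0.44 ± 0.51 in Il10_KO.
Arsb, the arylsulfatase that removes sulfate from dermatan and chondroitin chains, was 7.88, 8.12 and 8.12 in WT and 7.51 and 7.74 in Il10ra_mKO. It was also 8.51 in CX3CR1hi WT and 8.11 in Il10_KO, so the direction was downward in both comparisons. The difference was -0.41 ± 0.12, 1.33-fold lower (adjusted p = 0.540, limma), and -0.40 ± 0.19 in Il10_KO. The dimmer of its 2 probe sets also read lower, by -0.23 and -0.34.

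Of the 7 genes for lipid breakdown and cholesterol export, 6 were higher in each mutant. Npc2, which hands cholesterol inside the lysosome to the transporter Npc1, was 10.36, 10.45 and 10.56 in WT, 10.61 and 10.82 in Il10ra_mKO, and 10.75 against 11.15 in the CX3CR1hi pair. Both Il10ra_mKO arrays lay just above WT, and the difference was 0.26 ± 0.10 (adjusted p = 0.678, limma). Npc1 itself differed by 0.27 ± 0.20, carried by array 2 at 10.85, since array 1 at 10.25 lay within the WT range of 10.24 to 10.30.
Smpd1 encodes acid sphingomyelinase, which releases ceramide. It was lower, at 8.39, 8.45 and 8.50 in WT and 8.31 and 8.28 in Il10ra_mKO. The difference was small but the arrays of each group lay close together, at -0.15 ± 0.05 (adjusted p = 0.607, limma). In the CX3CR1hi pair Smpd1 was 9.27 and 9.24.
Lipa, the acid lipase that frees cholesterol from its esters, and Ppt1, which removes palmitate from proteins, differed by 0.39 ± 0.29 each, with WT array 3 inside the Il10ra_mKO range. Asah1, the acid ceramidase, differed by 0.19 ± 0.22 and Psap, the precursor of the saposin cofactors, by 0.13 ± 0.09. In Il10_KO, Lipa was higher by 0.39, Npc2 by 0.40, Npc1 by 0.30 and Asah1 by 0.02.

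No gene of the lysosomal membrane left the WT range in both Il10ra_mKO arrays, and the median differences of the 6 genes were 0.11 and 0.13. Of all genes 8.92% lay above that range in both arrays and 8.50% below. Lamp1, the abundant glycoprotein of the lysosomal membrane, was 12.04, 12.08 and 12.11 in WT, 12.11 and 12.39 in Il10ra_mKO, and 12.20 against 12.32 in the CX3CR1hi pair. Laptm5, a lysosomal membrane protein of blood cells, was 12.73, 12.64 and 12.77 in WT, 12.77 and 12.99 in Il10ra_mKO, and 12.55 against 12.75 in the CX3CR1hi pair. For both genes Il10ra_mKO array 1 tied with the highest WT array, and both differed by 0.17 (adjusted p = 0.678, limma). The calcium channel Mcoln1, which signals lysosomal stress to TFEB, differed by 0.16 ± 0.14. Lamp2 and the macrophage marker Cd68 differed by 0.05 ± 0.12 and 0.07 ± 0.06. The tetraspanin Cd63 was 11.53, 11.54 and 12.05 in WT and 11.24 and 11.83 in Il10ra_mKO. Its difference of -0.17 ± 0.28 turned to 0.12 without Il10ra_mKO array 1.

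Among the V-ATPase genes the d2 subunit had the largest difference in both mutants. Atp6v0d2 encodes the form of the d subunit known from osteoclasts and macrophages, in contrast to the ubiquitous Atp6v0d1. Its value was 6.29, 6.20 and 6.52 in the resident WT arrays and 6.66 and 7.66 in Il10ra_mKO, and it was 6.37 in CX3CR1hi WT and 8.19 in Il10_KO. Array 1 lay only slightly above WT and array 2 far above. The Il10ra_mKO difference was 0.82 ± 0.35, 1.77-fold (adjusted p = 0.678, limma), and it was 0.32 without array 2 and 1.32 without array 1.
In Il10_KO the gene was 3.53-fold higher (difference 1.82 ± 0.54, adjusted p = 0.171, limma), the largest difference of the 46 genes in that comparison. The effects of Il10_KO and Il10ra_mKO differed by 1.00 ± 0.64 (adjusted p = 0.653, limma). Atp6v0d1, by contrast, was 10.06, 10.25 and 10.52 in WT and 10.05 and 10.42 in Il10ra_mKO, with overlapping groups and a difference of -0.04 ± 0.20. Atp6v1a and Atp6v1h, subunits of the part that splits ATP, differed by 0.09 ± 0.12 and 0.0039 ± 0.18. Atp6ap1, an accessory subunit, was 11.19, 11.37 and 11.35 in WT and 11.37 and 11.50 in Il10ra_mKO, with 11.27 against 11.52 in the CX3CR1hi pair. Its groups overlapped narrowly, and the difference was 0.13 ± 0.09.

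Of the 2 regulators, Tfeb itself was 7.75, 7.61 and 7.73 in WT, 7.81 and 7.98 in Il10ra_mKO, and 8.18 against 8.41 in the CX3CR1hi pair. Both Il10ra_mKO arrays lay above WT, with a difference of 0.20 ± 0.08, 1.15-fold (adjusted p = 0.678, limma). Progranulin (Grn), a secreted protein that is cut into granulins inside the lysosome, was 12.31, 12.31 and 12.27 in WT and 12.31 and 12.42 in Il10ra_mKO. Array 1 equalled 2 of the WT arrays, and the difference was 0.07 ± 0.05. In Il10_KO Tfeb was higher by 0.23 and Grn by 0.18.

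The directions of both comparisons, which share no array, were alike for most of the 46 genes. Of them 32 were higher in both mutants, 69.6% against 35.6% of all genes and 45.5% of those past the filter, and 5 were lower in both, 10.9% against 30.6% and 28.9%. The 5 were Ctse, Arsb, Cd63, Fuca1 and Smpd1. Across the 46 genes the differences correlated at a Pearson r of 0.73 and a Spearman rho of 0.79, and at r = 0.81 over the 44 genes without Ctse and Atp6v0d2. Genes are not independent replicates, and each set of points shares the same few arrays, so this is a description. Past 1.5-fold in Il10_KO, 2 of the 46 genes were higher, Atp6v0d2 and Naglu (2.70% of all genes and 4.78% of those past the filter), and 0 were lower (4.42% and 7.38%). The difference between the effects passed the test for 0 of the 46 genes, against 4.70% of all genes and 0.483% of those past the filter. The sort label and the mutation cannot be told apart in that contrast.

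**Figure D4:**
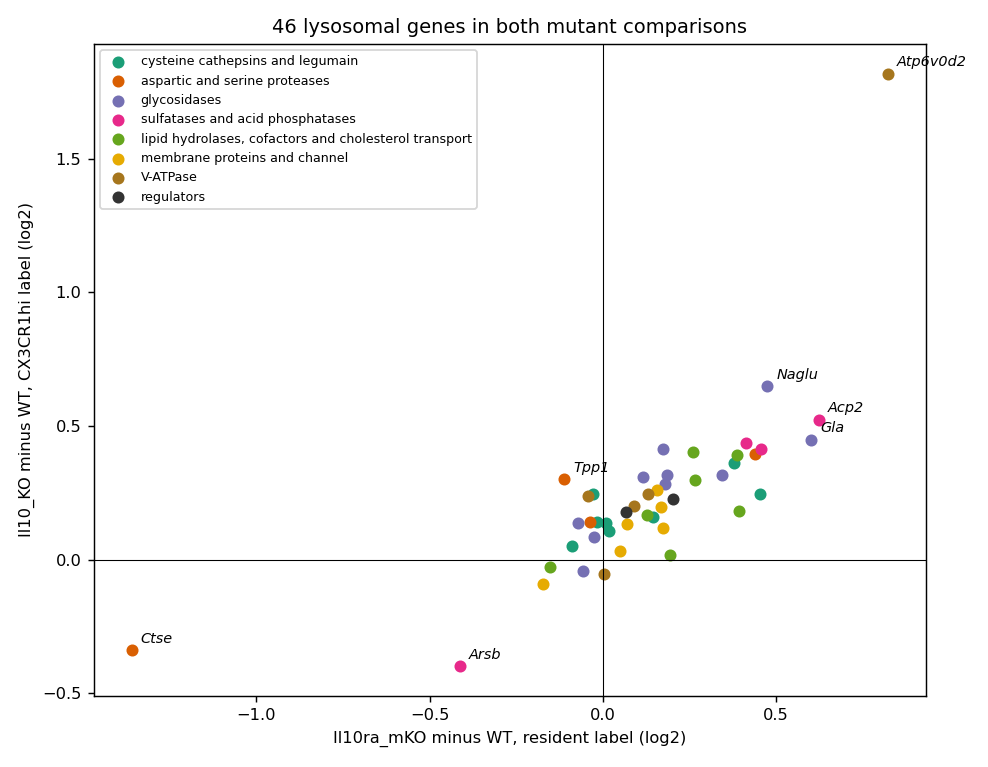
Each point is 1 of the 46 lysosomal genes, coloured by class, with the Il10ra_mKO difference (log2, resident label) on the x axis and the Il10_KO difference (log2, CX3CR1hi label) on the y axis. Of the 46 points 32 lie above 0 on both axes and 5 below 0 on both, with Atp6v0d2 and Ctse farthest from the rest.

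Genes around these 46 were read from 7 lists of the same pathway, of which 85 of 97 listed genes were measured. Of the 85, 80 passed the brightness filter. In Il10ra_mKO 57 of the 85 were higher and 28 lower, with a median of 0.12. Both arrays lay above the WT range for 20 (8.92% of all genes, 14.6% past the filter) and below for 7 (8.50% and 11.9%). Above 0 were 48.5% of all genes in Il10ra_mKO and 56.3% in Il10_KO, and 55.7% and 60.8% of those past the filter. None had an adjusted p under 0.05 in limma, and 10 were higher and 4 lower at an unadjusted p under 0.05 (4.06% and 3.86% of all genes). In Il10_KO 73 of the 85 were higher, with a median of 0.25, and 2 had an adjusted p under 0.05 (7.90% of all genes). Tfec, a MiT-TFE relative of Tfeb expressed mainly in macrophages, was 8.87, 8.89 and 9.11 in WT and 9.95 and 10.08 in Il10ra_mKO, and 9.71 against 10.78 in the CX3CR1hi pair. The mutant arrays lay above their controls, by 1.06 ± 0.10, 2.09-fold (adjusted p = 0.214, limma) in Il10ra_mKO and by 1.07 ± 0.16 (adjusted p = 0.0434, limma) in Il10_KO. The Il10_KO difference comes from 1 array against 1, and its error is borrowed from the resident arrays with their tied values. Its adjusted p ran from 0.0441 to 0.255 over 12 alternatives and was under 0.05 in 3. The other gene under the threshold in Il10_KO was Ctsw, a cathepsin of cytotoxic lymphocytes, at 4.44 against 4.83 and below the brightness filter in every array.
Mitf, another relative, had a difference of 0.48 ± 0.21, and Tfe3 one of 0.08 ± 0.07.

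Among the 12 other V-ATPase subunits 10 were higher in Il10ra_mKO. Tcirg1, the a3 subunit that serves lysosomes and the osteoclast border, was 11.37, 11.18 and 11.10 in WT, 11.88 and 11.96 in Il10ra_mKO, and 11.33 against 11.83 in the CX3CR1hi pair. The Il10ra_mKO arrays lay close together and clear of WT, at 0.70 ± 0.10, 1.62-fold (adjusted p = 0.300, limma). Its paralogue Atp6v0a1, the a1 subunit, was 10.20, 10.22 and 10.02 in WT and 9.46 and 9.83 in Il10ra_mKO, below WT in both arrays by -0.50 ± 0.15 (adjusted p = 0.540, limma).
Of 16 other membrane proteins and transporters 6 lay above the WT range and 2 below, against 8.92% and 8.50% of all genes and 14.6% and 11.9% of those past the filter. Clcn7, the exchanger that brings chloride into the lysosome, was 8.86, 8.17 and 8.82 in WT, 9.88 and 9.998 in Il10ra_mKO, and 8.88 against 9.72 in the CX3CR1hi pair. Both Il10ra_mKO arrays were about a full log2 unit above the highest WT array, a difference of 1.32 ± 0.26, 2.50-fold (adjusted p = 0.391, limma). The calcium and sodium channel Tpcn1 was lower by -0.62 ± 0.17 (adjusted p = 0.511, limma), from 9.32, 9.51 and 9.09 in WT to 8.54 and 8.83.

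Of 7 protease inhibitors 3 lay above the WT range in both Il10ra_mKO arrays, against 8.92% of all genes and 14.6% of those past the filter. Only 4 of the 7 passed the filter. Cst7 encodes cystatin F, which enters the endolysosome and holds back cathepsins. It was 5.60, 5.21 and 5.23 in WT, 8.23 and 7.68 in Il10ra_mKO, and 5.24 against 7.12 in the CX3CR1hi pair. WT arrays of both labels lay below the brightness filter and all mutant arrays above it, with differences of 2.61 ± 0.23 (adjusted p = 0.207, limma) and 1.88 ± 0.36 (adjusted p = 0.0727, limma). No fold is given, since the control level is that of a dim probe set. Serpinb6b and stefin B (Cstb), named after their values had been seen, were higher in Il10ra_mKO by 1.54 ± 0.19 and 0.54 ± 0.15, while cystatin C (Cst3) differed by -0.04 ± 0.07. Stfa2, a stefin A gene, differed by -0.12 ± 0.15 at dim levels. The stefin A genes are near copies of each other, and their probe sets can share signal.

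Among 9 genes that deliver enzymes to the lysosome 4 were higher and 5 lower in Il10ra_mKO, with a median of -0.01. In Il10_KO 7 were higher and 2 lower. Sort1, the sorting receptor sortilin, was 9.45, 10.001 and 9.66 in WT, 9.14 and 8.44 in Il10ra_mKO, and 10.17 against 9.28 in the CX3CR1hi pair. It was lower in both mutants, by -0.92 ± 0.30 (adjusted p = 0.585, limma) and -0.89 ± 0.46. The mean of the epithelial markers was lowest in the same Il10ra_mKO array in which Sort1 was lowest, and its part in the result was not tested. Ap1m1, a subunit of the adaptor that loads such cargo into vesicles, was higher by 0.15 ± 0.07, with both arrays above WT. Of 16 other hydrolases 11 were higher in Il10ra_mKO. Both arrays lay above the WT range for 1, the dim Ctsw, and below it for 3, Ctsf, Hgsnat (-0.19) and Ggh (-0.71). The shares of all genes were 8.92% and 8.50%, and of those past the filter 14.6% and 11.9%. Cathepsin F (Ctsf) was 6.85, 6.75 and 6.99 in WT and 6.24 and 6.50 in Il10ra_mKO, lower by -0.49 ± 0.12 (adjusted p = 0.459, limma). In the autophagy list 10 of 12 genes were higher in Il10ra_mKO. Atg5, which conjugates LC3-type proteins to membranes, had a difference of 0.34 ± 0.15, and Wipi1, which binds the membrane of forming autophagosomes, one of -0.33 ± 0.17. Tsc2, a brake on mTORC1, differed by -0.03 ± 0.04.

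**Figure D5:**
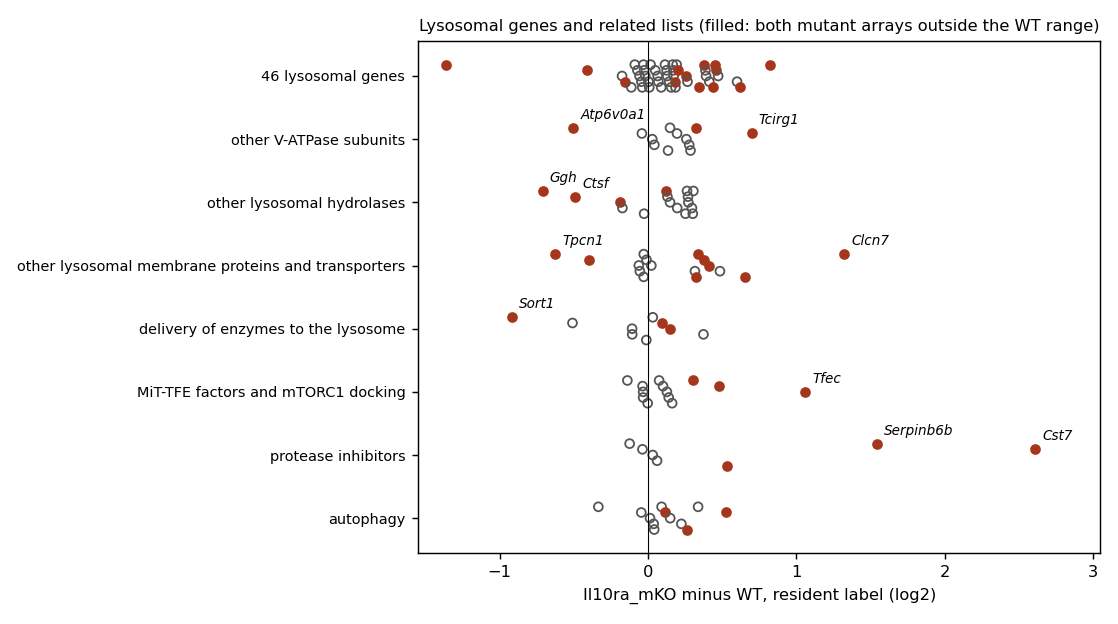
Each point is 1 gene at its Il10ra_mKO minus WT difference (log2, resident label), for the 46 lysosomal genes and 7 related lists. Filled points are genes whose 2 mutant arrays both lie outside the range of the 3 WT arrays. Cst7 at 2.61, Serpinb6b at 1.54, Clcn7 at 1.32 and Tfec at 1.06 lie to the right of all 46 lysosomal genes, of which Ctse at -1.36 lies farthest left.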

How the data were processed

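RNA of sorted colonic macrophages was measured on 7 arrays. The deposited log2 values, 1 column per array, were used as given. Per the submitters' processing notes RMA and Partek made them. Their versions, the genome build and a joint or separate normalization of the sort labels are not stated there. Of 35399 rows, 21789 have exactly 1 gene symbol in the platform annotation, and the row with the highest mean was kept for each of 19938 genes.

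All 7 arrays were fitted as 4 group means with limma 3.58.1 in R 4.3.3 (eBayes with a variance trend, 3 residual degrees of freedom), and p-values are two-sided and adjusted over all genes by Benjamini-Hochberg, with a threshold of 0.05. The lone CX3CR1hi arrays are assumed to vary like the others. With so few arrays, precision is limited throughout.

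The 46 genes and the lists were chosen with earlier results of these data known. Genes given by array were those with the smallest p in each class, the largest differences in each comparison, and the smallest p in each direction in each related list. No promoter met the rule for printing, which asked for the 10-base E-box, so those printed were chosen after the values had been seen. Alternatives were no variance trend, resident arrays alone, the brightness filter, quantile normalization, array medians subtracted, the mean of all rows of a gene, runs of neighbouring title numbers as a block, each resident array left out, and, added later, the macrophage-marker mean subtracted.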

Additional observations from a re-analysis of the deposited data

How the results depend on the processing

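No paired analysis was possible because the replicate numbers follow accession order and pair no arrays; runs of neighbouring serial numbers in the titles, which no label calls a batch, served as a block instead. Of the values of single genes under the alternatives, 953 kept their direction and their side of the threshold, 18 lost a call, 17 gained one and 19 changed sign. Counts of calls over all genes moved more, and the cause was not tested. For Il10ra_mKO 1 gene was called in the main analysis, 4 without a variance trend, 12 with the brightness filter, 138 after quantile normalization, 146 with array medians subtracted, 0 with the run as a block, 578 relative to the macrophage markers, and 0 to 267 leaving out 1 array. For Il10_KO 1576 genes were called, and in the same order 758, 2, 17, 31, 446, 90 and 559 to 2788. For the difference of the effects 937 genes were called, and then 30, 1, 11, 17, 0, 20 and 0 to 2200. The mean of all rows of a gene gave 1, 1537 and 899. Of the 46 genes 1 was called in Il10_KO, 0 under each of the first 6 alternatives, and 0 to 2 leaving out 1 array; 0 to 1 were called for the difference of the effects. Leaving out 1 array gave 10 to 32 genes above the WT range, 3 to 11 below it and a median of 0.0325 to 0.26 in Il10ra_mKO. Shares over all genes are not given for these leave-out counts, and fewer arrays make a range easier to leave. Relative to the macrophage markers, 1 of the 46 genes was called in Il10ra_mKO, 14 lay above the WT range (7.70% of all genes) and 6 below (9.89%). On that scale 1 gene was higher and 1 lower past 1.5-fold in Il10_KO, with 23 above 0 and a median of -0.0112. Above 0 there were 27.3% of the genes past the filter.

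Signs turned for genes near 0, but not only for them. Among the genes that turned, the main Il10_KO difference was 0.21 for Atg5, 0.20 for Laptm5, 0.18 for Grn and 0.12 for Tsc2 and Lamp1. The median of the lysosomal genes in that comparison was 0.21. Cd63, which also turned, differed by -0.17 in Il10ra_mKO in the main analysis. In Il10ra_mKO Atp6v1h was -0.0272 after quantile normalization, -0.0371 with the run as a block, -0.0648 relative to the markers and -0.14 to 0.11 leaving out 1 array. With array medians subtracted Tsc2 was 0.0163 in Il10ra_mKO, and Smpd1 was 0.0205 and Fuca1 0.0044 in Il10_KO. Relative to the markers Grn was -0.0031 in Il10ra_mKO, and in Il10_KO Laptm5 was -0.0258, Lamp1 -0.11, Grn -0.045, Lgmn -0.17, Tsc2 -0.10 and Atg5 -0.018. Leaving out 1 array, Stfa2 ran from -0.19 to 0.0030, Fuca1 from -0.15 to 0.0404 and Cd63 from -0.47 to 0.12.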
